A study of Mus musculus with 6 samples.

Results

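The genes described here are 10 genes of basophils and mast cells: the granule proteases Prss34, Mcpt8, Cpa3, Cma1 and Tpsb2, the IgE receptor chains Fcer1a and Ms4a2, the histamine-forming enzyme Hdc, and the surface receptors Il1rl1 and Cd200r3. They were chosen by name as markers of these cells, and all 10 were found, each in a single row, among the 30803 rows of the deposited tables. RNA sequencing had been carried out on cells labelled as hematopoietic stem cells from the bone marrow of wild-type mice at 12 months of age. A fraction with high surface MHC class II (MHCII-hi) and one with low surface MHC class II (MHCII-lo) were compared, with 3 libraries each, and no other allele or treatment is named in the labels. The labels name neither the other surface markers of the sort nor the mice behind each library. The libraries may therefore be technical repeats, and a p-value here reflects the spread among the 6 of them and no more. Levels are in FPKM, a count of fragments corrected for transcript length and library size, so genes can be set beside each other. How deeply each library was sequenced is unknown. In this bulk RNA, fewer cells of a type and less RNA per cell cannot be told apart.

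Basophils and mast cells are granulocytes that carry the high-affinity IgE receptor, which is built from an alpha chain that binds IgE, a beta chain that amplifies the signal and a gamma chain that starts it. Allergen that cross-links the bound IgE makes the cells release histamine and proteases from their granules and then secrete lipid mediators and cytokines. Basophils mature in the bone marrow and circulate, whereas mast cells leave as precursors and ripen in tissues. The transcription factors GATA2, GATA1, MITF and C/EBPα take part in the choice between these fates.

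The transcripts of basophil proteases and of the IgE-binding chain were lower in MHCII-hi, and those of the histamine-forming enzyme were higher. Prss34 was 2.77 times lower in MHCII-hi than in MHCII-lo, Mcpt8 2.23 times lower and Fcer1a 2.17 times lower, while Hdc was 1.96 times higher. Cpa3, shared by both cell types, and Cd200r3, a basophil surface receptor, were lower by smaller factors of 1.17 and 1.43. Il1rl1 and Ms4a2 did not pass the test, and the mast cell proteases Cma1 and Tpsb2 lay at or near 0 in both fractions.

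A gene was tested when its mean over the 6 libraries reached 1 FPKM, and it was called changed at a Benjamini-Hochberg adjusted p under 0.05 in limma over all 12049 genes tested. Of the 10 genes, 8 were tested, and 5 were called lower, 1 higher and 2 neither. Calls were common in this comparison: 60.9% of all tested genes were called, 40.5% as lower and 20.3% as higher in MHCII-hi. The 3 libraries of one fraction lay wholly above those of the other for 7 of the 8 genes, 6 of them lower in MHCII-hi, beside 67.6% of all tested genes in either direction and 45.0% lower. A fall of at least 1 on the log2 scale, held by 3 of the 8 genes, was found in 1.36% of all tested genes. The median log2 fold change of the 8 genes was −0.29, beside −0.12 for all tested genes. All fold changes on the log2 scale are MHCII-hi minus MHCII-lo of log2(FPKM + 1), a scale that understates changes of low genes.

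**Figure D1:**
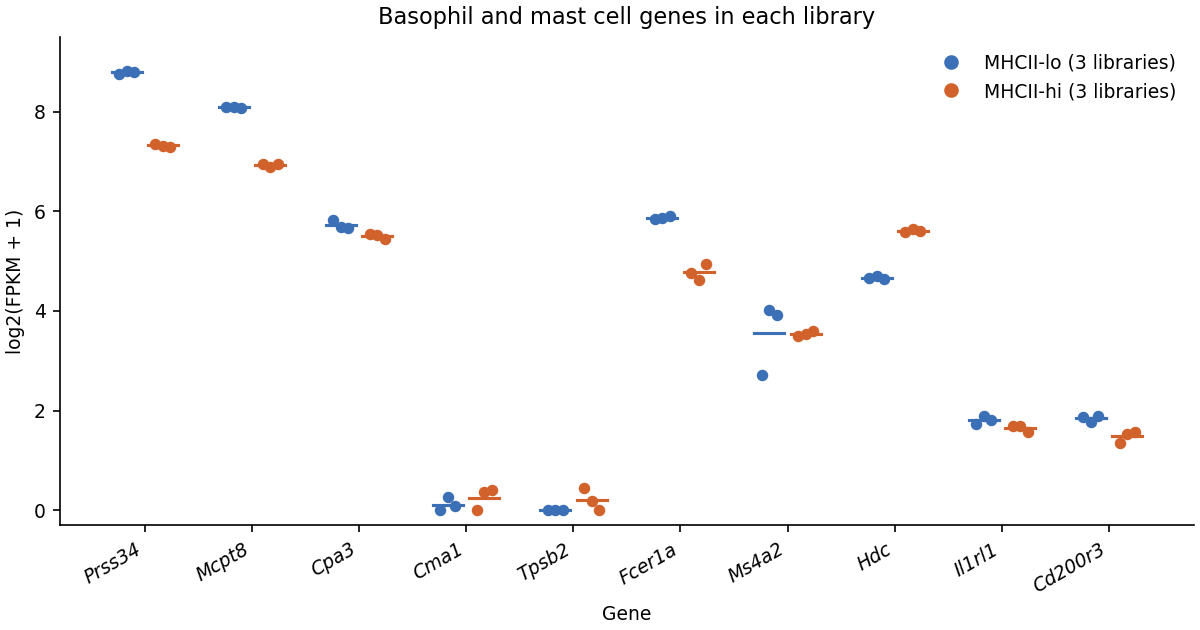
Level of each of the 10 genes in each library, as log2(FPKM + 1), with MHCII-lo in blue and MHCII-hi in orange; points are libraries and bars are means of the log2 values. Prss34, Mcpt8 and Fcer1a were lower and Hdc higher in all 3 MHCII-hi libraries, 1 MHCII-lo library stood low for Ms4a2, and Cma1 and Tpsb2 lay near 0.

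The promoters of Prss34, Fcer1a and Cpa3 are shown as examples of genes called lower, by factors of 2.77, 2.17 and 1.17. That of Hdc is shown because it was called higher. The promoter of Mcpt8 is not shown, since its window runs into an untranslated exon of another annotated transcript. Each line gives the 250 bases before the annotated transcription start, 5′ to 3′ on the strand of the gene, from RefSeq on GRCm38.p6. Capitals mark GATAA or its reverse complement, a form of the motif that GATA factors bind. Other forms, such as GATAG, were not searched, and the Hdc stretch holds GATAG in small letters. The stretches are chr17:25298144-25298393, plus strand for Prss34, chr1:173227230-173227479, minus strand for Fcer1a, chr3:20242182-20242431, minus strand for Cpa3 and chr2:126618679-126618928, minus strand for Hdc, the last of which lies in an intron of a longer Hdc transcript in GENCODE.
Prss34: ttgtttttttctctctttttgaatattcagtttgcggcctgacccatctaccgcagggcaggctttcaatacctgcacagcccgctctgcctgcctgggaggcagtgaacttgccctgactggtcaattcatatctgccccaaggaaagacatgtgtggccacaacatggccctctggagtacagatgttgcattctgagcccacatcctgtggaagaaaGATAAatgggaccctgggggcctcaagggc
Fcer1a: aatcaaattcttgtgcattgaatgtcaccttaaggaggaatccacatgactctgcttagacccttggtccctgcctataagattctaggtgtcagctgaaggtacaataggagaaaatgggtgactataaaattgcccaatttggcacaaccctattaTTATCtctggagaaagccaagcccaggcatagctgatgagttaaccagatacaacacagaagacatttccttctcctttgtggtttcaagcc
Cpa3: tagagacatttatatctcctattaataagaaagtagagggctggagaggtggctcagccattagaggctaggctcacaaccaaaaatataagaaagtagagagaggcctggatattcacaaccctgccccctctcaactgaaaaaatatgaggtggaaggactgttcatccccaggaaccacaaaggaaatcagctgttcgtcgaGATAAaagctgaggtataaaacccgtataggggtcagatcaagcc
Hdc: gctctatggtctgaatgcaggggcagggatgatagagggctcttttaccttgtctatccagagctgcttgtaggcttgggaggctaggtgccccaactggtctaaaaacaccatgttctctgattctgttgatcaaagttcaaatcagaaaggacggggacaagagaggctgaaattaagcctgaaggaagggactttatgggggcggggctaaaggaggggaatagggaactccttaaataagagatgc

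The promoters of Prss34, Fcer1a and Cpa3 each hold 1 match to GATAA, and those of Hdc and Mcpt8 hold none, so Prss34 and Mcpt8, which had the largest falls, do not share a match in this stretch. RefSeq promoters were matched for 9 of the 10 genes, with 2 starts for Il1rl1. In windows of 300 bases, which add 50 bases after the start, GATAA on either strand was found for 7 of these 9 genes. These include Ms4a2, with 3 matches, and Il1rl1, which were not called, and Cma1, which was not tested. Of all 32851 promoter windows of this length, 25.4% hold the motif. An E-box, CANNTG, to which basic helix-loop-helix factors such as MITF bind, was found for 8 of the 9 genes, Ms4a2 being without one, and in 72.3% of all windows. The letters TTNNGNAA, a loose form of the C/EBP motif, were found for Fcer1a, Il1rl1 and Cd200r3, and in 40.7% of all windows. No match to one motif overlapped a match to another. A match is a run of letters and not a measured binding site, and these letters may lie outside the windows searched.

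**Figure D2:**
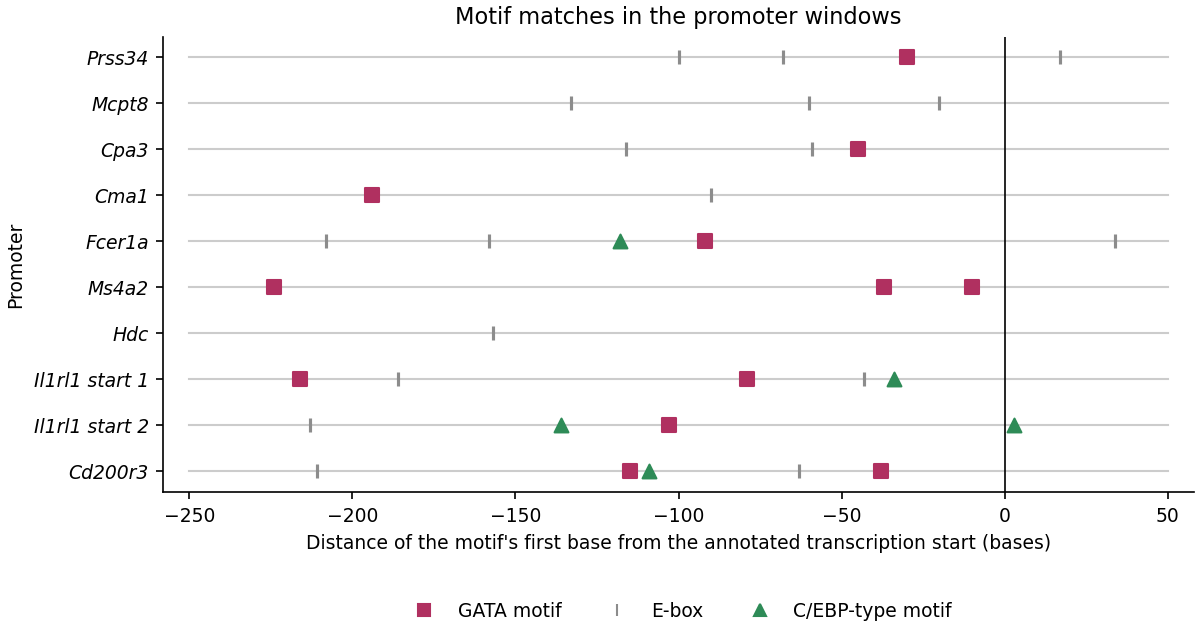
Matches to the GATA motif (squares), the E-box (ticks) and the C/EBP-type motif (triangles) in the promoter windows of 9 genes, by the distance in bases of the first base of the match from the annotated start, with 2 starts for Il1rl1. Squares mark GATAA only, and other forms of the GATA motif were not searched. GATAA matches lie in the windows of 7 of the 9 genes and are lacking for Mcpt8 and Hdc.

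Among the proteases, Prss34 was the most abundant. Prss34, a tryptase-like serine protease that basophils make (chromosome 17, 25298394 to 25300165, GRCm38), stood at 427.76, 448.52 and 444.57 FPKM in MHCII-lo and at 162.43, 158.24 and 155.57 FPKM in MHCII-hi. The 2 sets of values were far apart, with little spread in either. Its mean went from 440.3 ± 11.02 to 158.7 ± 3.46 FPKM (SD, n = 3 each), a log2 fold change of −1.47 (SE 0.0255, limma adjusted p 4.04e-08). By mean FPKM its rank among all genes moved from 84 in MHCII-lo to 293 in MHCII-hi, and 0.241% of tested genes had a lower fold change.

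Mcpt8, a serine protease that serves as a marker of mouse basophils (chromosome 14, 56082166 to 56085273), stood at 270.14, 270.53 and 269.36 FPKM in MHCII-lo and at 122.47, 118.01 and 122.59 FPKM in MHCII-hi. The groups again did not overlap, and the spread in MHCII-lo was 0.221% of the mean. The log2 fold change of Mcpt8 was −1.15 (SE 0.0208, limma adjusted p 4.45e-08). The annotated microRNA gene Mir6949 lies within Mcpt8 on the same strand. Both proteases fell, but not by the same factor: the ratio of Prss34 to Mcpt8 within a library was 1.63 ± 0.041 for MHCII-lo, against 1.31 ± 0.038 for MHCII-hi (SD, n = 3 each), with no overlap.

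Cpa3, carboxypeptidase A of mast cell granules, which basophils and their progenitors also express (chromosome 3, 20215620 to 20242181), stood at 56.01, 50.66 and 49.73 FPKM in MHCII-lo and at 45.68, 45.20 and 42.72 FPKM in MHCII-hi. Every MHCII-hi value was below every MHCII-lo value, by a small margin. The log2 fold change of Cpa3 was −0.22 (SE 0.0506, limma adjusted p 0.00797), or −0.10 relative to the median tested gene. The call was lost after median-ratio scaling between libraries (log2 fold change −0.09, adjusted p 0.164) and after the neutrophil markers were left out of the library total (adjusted p 0.178).

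The 2 proteases typical of mature mast cells were hardly detected. Cma1, a chymase (chromosome 14, 55941451 to 55944675), was listed at 0, 0.20 and 0.06 FPKM in MHCII-lo and at 0, 0.29 and 0.32 FPKM in MHCII-hi. Tpsb2, a tryptase (chromosome 17, 25366305 to 25369098), was listed at 0 in all MHCII-lo libraries and at 0.36, 0.14 and 0 FPKM in MHCII-hi. These values overlap at 0, fall under the limit for testing and allow no fold change. Tpsb2 resembles its neighbour Tpsab1, which was listed at 0 in all 6 libraries, so the sharing of reads between them is uncertain. Prss34 and Tpsb2 lie 66.1 kb apart on chromosome 17 and Mcpt8 and Cma1 137.5 kb apart on chromosome 14, and in each of these pairs the first gene was abundant and the second near 0.

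The 2 listed chains of the IgE receptor did not show the same pattern. Fcer1a, the alpha chain that binds IgE (chromosome 1, 173221284 to 173227214), stood at 56.53, 57.25 and 58.68 FPKM in MHCII-lo and at 26.09, 23.47 and 29.89 FPKM in MHCII-hi. The fractions did not overlap, and the MHCII-hi libraries were the more spread (12.2% of the mean, against 1.90%). The log2 fold change of Fcer1a was −1.10 (SE 0.0788, limma adjusted p 3.19e-05). Ms4a2, the signal-amplifying beta chain (chromosome 19, 11615523 to 11623719), stood at 5.56, 15.23 and 14.07 FPKM in MHCII-lo and at 10.32, 10.57 and 11.13 FPKM in MHCII-hi. MHCII-lo replicate 1 was below and MHCII-lo replicates 2 and 3 were above all MHCII-hi libraries.

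With that spread, Ms4a2 had a log2 fold change of −0.0048 with a 95% interval of −0.77 to 0.77 (limma adjusted p 0.99). Without MHCII-lo replicate 1, Ms4a2 was called lower (log2 fold change −0.42, limma adjusted p 0.00136). Its coefficient of variation in MHCII-lo, 45.4%, was exceeded by 18 of the 5386 tested genes with a mean of 5 to 25 FPKM there, whose median was 4.38%. The other 7 tested genes of the list had coefficients of variation of 0.221% to 7.35% in MHCII-lo, and the cause of the low Ms4a2 value was not tested. The gamma chain Fcer1g, which other Fc receptors also use, was called higher, from 149.4 ± 6.54 to 171.2 ± 4.23 FPKM in MHCII-hi (log2 fold change 0.20, SE 0.0358, limma adjusted p 0.00296).

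Hdc, histidine decarboxylase, makes histamine from histidine and is also expressed by immature myeloid cells of the marrow (chromosome 2, 126593667 to 126619299). It stood at 24.15, 25.10 and 24.04 FPKM in MHCII-lo and at 46.98, 48.85 and 47.71 FPKM in MHCII-hi. All MHCII-hi libraries were above all MHCII-lo libraries, with a spread of 2.39% and 1.97% of the mean. The log2 fold change of Hdc was 0.94 (SE 0.0298, limma adjusted p 5.65e-07), or 1.06 relative to the median tested gene, and it was the 1 gene of the list called higher. Its rank by mean FPKM moved from 2086 to 994.

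The 2 surface receptors were low. Il1rl1, the receptor for interleukin-33 (chromosome 1, 40429570 to 40465415), stood at 2.33, 2.70 and 2.52 FPKM in MHCII-lo and at 2.24, 2.22 and 1.99 FPKM in MHCII-hi. The MHCII-hi values lay just under the MHCII-lo values, and the difference did not pass the test (log2 fold change −0.16, SE 0.0694, 95% interval −0.32 to 0.0066, limma adjusted p 0.0864). It passed narrowly when the variance model had no intensity trend (adjusted p 0.048).

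Cd200r3, an activating receptor of the CD200 receptor family on basophils and mast cells (chromosome 16, 44943678 to 44981380), stood at 2.66, 2.41 and 2.71 FPKM in MHCII-lo and at 1.56, 1.89 and 1.99 FPKM in MHCII-hi. The groups did not overlap. The log2 fold change of Cd200r3 was −0.36 (SE 0.0813, limma adjusted p 0.00801). Its family members Cd200r1 and Cd200r4 did not pass the test, at 3.24 ± 0.483 to 3.81 ± 0.122 FPKM and 1.84 ± 0.266 to 1.37 ± 0.262 FPKM. Cd200r1 was called higher under the 3 other scalings (adjusted p 0.0265 to 0.0412), and reads may be shared among these similar genes.

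**Figure D3:**
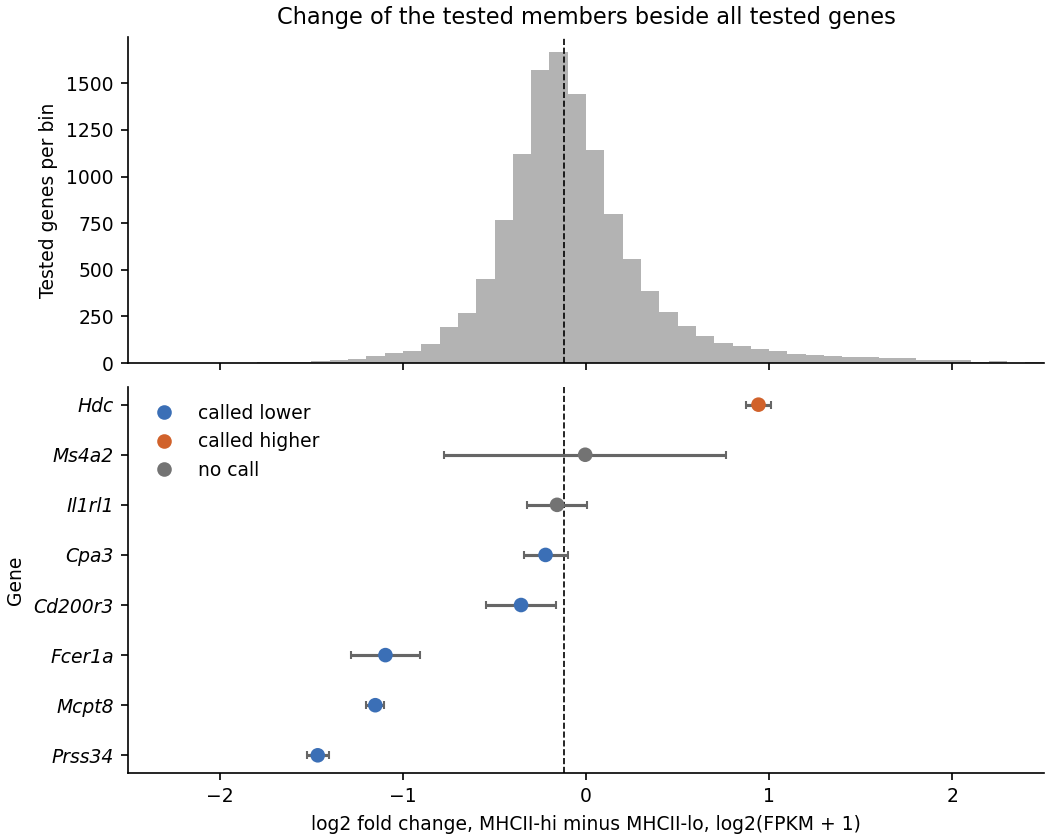
Upper panel, number of tested genes by log2 fold change (MHCII-hi minus MHCII-lo) in bins of 0.1, drawn between −2.5 and 2.5; lower panel, the 8 tested genes with 95% intervals, coloured by call; the dashed line is the median of all tested genes, −0.12. Prss34, Mcpt8 and Fcer1a lie in the far left of the distribution and Hdc lies on the right, while Cpa3 and Il1rl1 lie close to the median.

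Ratios within a library do not change when all values of the library are multiplied by 1 factor, though quantile normalization can alter them. Relative to Cpa3, Prss34 was at 8.48 ± 0.728 in MHCII-lo, against 3.57 ± 0.0709 in MHCII-hi, and Mcpt8 at 5.19 ± 0.323 and 2.72 ± 0.134 (SD, n = 3 each). Fcer1a relative to Cpa3 was at 1.11 ± 0.0878 and 0.597 ± 0.0929. The ratio of Hdc to Cpa3 went the other way, from 0.470 ± 0.0342 to 1.08 ± 0.0444, so that Hdc lay under Cpa3 in all MHCII-lo libraries and above it in all MHCII-hi libraries. The ratio of Prss34 to Hdc was 18.0 ± 0.413 for MHCII-lo, against 3.32 ± 0.12 for MHCII-hi. None of these ratios overlapped between the fractions, and the pairs were chosen after the values were seen and were not tested.

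**Figure D4:**
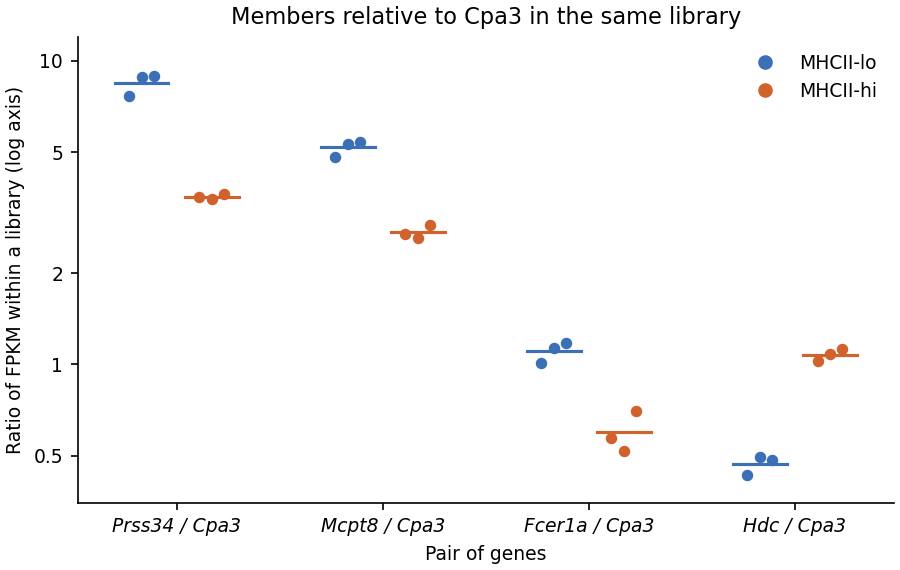
FPKM of Prss34, Mcpt8, Fcer1a and Hdc divided by the FPKM of Cpa3 in the same library, on a log axis, with MHCII-lo in blue and MHCII-hi in orange; points are libraries and bars are means. The ratios of Prss34, Mcpt8 and Fcer1a are lower and that of Hdc is higher in MHCII-hi, with no overlap.

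Together the 10 genes summed to 845.1, 872.6 and 865.7 FPKM in MHCII-lo and to 418.1, 408.9 and 413.9 FPKM in MHCII-hi, a ratio of 2.08. This was 0.263 ± 0.00452% of all summed FPKM in MHCII-lo, against 0.120 ± 0.000985% in MHCII-hi. The proteases made up 88.55 ± 0.569% of the sum in MHCII-lo and 78.5 ± 0.8% in MHCII-hi. Without Prss34 and Mcpt8 the sum was 150.9 ± 3.30 and 133.9 ± 1.70 FPKM, so these 2 genes carried most of the difference.

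Libraries were alike within each fraction (Pearson r of 0.991 to 0.993 across tested genes, 0.945 to 0.947 between fractions). The genes of the sorted molecule were called higher in MHCII-hi: Cd74, the invariant chain, H2-Eb1, H2-Ab1 and H2-Aa. Of 18 stem cell markers, 6 stayed under 1 FPKM in all libraries: Procr was listed at 0.11 to 0.23 FPKM in MHCII-lo, against 0.34 to 0.79 FPKM in MHCII-hi, and Slamf1 at 0.13 to 0.29 and 0.22 to 0.30 FPKM, in the same order. Sca-1 (Ly6a, 9.15 to 11.69 and 9.34 to 11.47 FPKM) and the stem cell factor receptor Kit (means of 14.3 ± 0.175 and 13.9 ± 0.318 FPKM) were detected and did not pass the test. Of 11 eosinophil markers 9 were called lower, or 8 under the 3 other scalings, and 1 higher. The MHCII-lo libraries summed to 5477 to 5519 FPKM over them and the MHCII-hi libraries to 2360 to 2369 FPKM, with no marker at 0 in any library. Prg2, the major basic protein, fell from 3670 ± 34.5 to 1570 ± 7.11 FPKM, Ear1 from 551.6 ± 8.49 to 261.3 ± 6.04 FPKM and Ear2 from 415 ± 12.7 to 204.9 ± 4.24 FPKM. Of 22 neutrophil markers 21 were called higher and 1, Ptgs2, lower, and their share of all summed levels was 2.91 to 2.94% for MHCII-lo libraries, beside 16.1 to 16.2% for MHCII-hi libraries. S100a9 rose to 6.48 times its MHCII-lo level, S100a8 to 5.59 times and Ngp to 5.63 times. The part of eosinophil and neutrophil RNA in the changes of Prss34, Mcpt8, Fcer1a and Hdc was not tested.

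A further 7 lists held 112 other genes of basophil and mast cell function, of which 102 were found and 84 tested. Of these, 42 were called higher and 31 lower, or 50% and 36.9%, beside 20.3% and 40.5% of all tested genes. Some also stand among the markers of other cells, such as Ptgs2 for neutrophils and Il5ra, Ccr3 and Siglecf for eosinophils. The part of neutrophil and eosinophil RNA in these calls was not tested. From each list the 3 most abundant genes are given, and any further genes were chosen after their values were seen. The median of all tested genes moved from −0.12 to −0.01 after median-ratio scaling, and calls of named genes that this ended are given.

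Of the other proteases of the chymase and tryptase clusters, only 2 of the 8 found could be tested. Ctsg, cathepsin G of neutrophil and monocyte precursors, was at 1006 ± 5.99 and 1031 ± 24.2 FPKM and did not pass the test (adjusted p 0.158), although it was called higher after median-ratio scaling and lower after quantile normalization. Gzmb, granzyme B, fell from 11.2 ± 0.436 to 7.56 ± 0.994 FPKM. Prss28, a tryptase-cluster protease, was listed at 0.98 to 1.04 FPKM in the one and 0.24 to 0.41 FPKM in the other fraction and was not tested. The mast cell proteases Mcpt2 and Tpsab1 were listed at 0 in all libraries, and Mcpt4 at 0 in 5 of 6.

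Of 19 genes that signal below the IgE receptor, 12 were called higher and 4 lower, with a median of 0.11. After Fcer1g the most abundant were Vav1, an exchange factor (55.5 ± 0.577 to 59.98 ± 0.922 FPKM), and Grb2, an adaptor (52.6 ± 0.961 to 57.9 ± 1.32 FPKM), and both were called higher by small amounts. The kinase Syk, which docks on the gamma chain, rose by 0.51 on the log2 scale. The adaptor Lat2 and the kinase Fyn, both used by the receptor in mast cells, fell by 0.87 and 0.81 on the log2 scale. Of the 4 lower calls, those of Gab2 and Pik3cd were lost after median-ratio scaling (adjusted p 0.0967 and 0.402). The higher calls fell to 8 without MHCII-hi replicate 3 or without MHCII-lo replicate 2, while the lower calls stayed at 4. Those of Btk, Plcg2, Prkcd and Orai1, all higher, were each lost when some single libraries were left out.

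Of 13 tested genes for granule contents, release and lipid mediators, 9 were called higher and 3 lower, with a median of 0.32. Srgn, the proteoglycan core that packs granule proteases in many blood cells, rose from 445.2 ± 6.23 to 558.7 ± 4.86 FPKM. Alox5ap, which feeds leukotriene synthesis, rose from 212.1 ± 4.03 to 512.2 ± 7.58 FPKM. Cd63, a granule membrane protein that marks degranulated basophils, rose from 58.7 ± 0.635 to 62.5 ± 0.754 FPKM. Alox5, the leukotriene-forming enzyme, rose by 1.73 on the log2 scale, and Slc18a2, which loads histamine into granules, by 0.28. Genes of the mast cell mediators leukotriene C4 and prostaglandin D2, Ltc4s and Hpgds, were too low to be tested. Ltc4s was listed at 0.11, 0.19 and 0 FPKM in MHCII-lo, against 0.48, 0.6 and 0.81 FPKM in MHCII-hi. Hpgds was listed at 0.05 to 0.09 FPKM in MHCII-lo and at 0.08 to 0.21 FPKM in MHCII-hi.

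Of 12 tested growth factor and cytokine receptors, 9 were called higher and 1 lower, with a median of 0.53. Csf2rb, the beta chain shared by the receptors for interleukin-3, interleukin-5 and GM-CSF, rose from 24.96 ± 0.0458 to 49.8 ± 0.681 FPKM. Csf2ra, the GM-CSF receptor alpha chain, rose from 54.2 ± 1.11 to 71.9 ± 1.71 FPKM. Crlf2, the TSLP receptor, went from 19.4 ± 1.37 to 21.7 ± 0.332 FPKM, a call that was lost without any single library other than MHCII-lo replicate 3. Il3ra, the alpha chain for interleukin-3, the main growth factor of basophils, was the 1 receptor called lower, by 0.54 on the log2 scale.

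Of 15 transcription factors, 9 were called lower and 4 higher, with a median of −0.28. The most abundant, Spi1 (60.5 ± 2.45 to 84.3 ± 1.43 FPKM), Ikzf1 (64.6 ± 0.552 to 68.5 ± 0.673 FPKM) and Cebpb (64.1 ± 0.471 to 78.04 ± 1.86 FPKM), general regulators of blood and myeloid cells, were called higher. Of the 4 factors introduced above, which were picked from the list after their values were seen, Gata1 fell by 0.79, Gata2 by 0.40, Mitf by 0.56 and Cebpa by 0.82 on the log2 scale, and all 4 were also called lower under the 3 other scalings. Stat5b and Tfe3 did not pass the test (adjusted p 0.36 and 0.469), and Lmo4 was the other factor called higher. Erythroid cells, megakaryocytes and granulocyte precursors also use these factors. The call of Tal1 was lost under all 3 other scalings (adjusted p 0.111 to 0.258).

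Of 9 tested cytokines and chemokines, 8 were called lower and 1 higher, with a median of −0.38. The chemokine Ccl3 of activated myeloid cells fell from 323.5 ± 4.70 to 145.0 ± 6.74 FPKM, the related Ccl4 fell from 101.7 ± 3.31 to 52.5 ± 2.23 FPKM, and Osm, oncostatin M, rose from 83.3 ± 1.98 to 109.3 ± 2.03 FPKM. Il4, a hallmark cytokine of basophils, was at 2.0, 2.51 and 2.0 FPKM in MHCII-lo and at 1.37, 1.73 and 1.33 FPKM in MHCII-hi. Its lower call was lost after median-ratio scaling (adjusted p 0.0572) and without MHCII-lo replicate 2, MHCII-hi replicate 1 or MHCII-hi replicate 3. Il6 fell by 1.36 on the log2 scale. The lower calls of Tnf and Ccl2 were also lost after median-ratio scaling (adjusted p 0.0911 and 0.0522).

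Of 14 tested surface genes, 7 were called higher and 5 lower, with a median of 0.17. Ms4a3, a marker of granulocyte and monocyte precursors, went from 256.3 ± 2.61 to 285.0 ± 6.51 FPKM, Lilrb4a, an inhibitory receptor of myeloid cells, from 110.0 ± 13.2 to 316.2 ± 3.36 FPKM and Itgam, the CD11b integrin chain, from 70.2 ± 1.397 to 205.3 ± 4.07 FPKM, and all 3 were called higher. Itgb7, the integrin chain by which mast cell precursors enter tissues, fell by 1.36 on the log2 scale. Itga2, the CD49b chain used to stain basophils, was too low to be tested, at 0.88, 1.11 and 1.02 FPKM in MHCII-lo, against 0.68, 0.57 and 0.63 FPKM in MHCII-hi. Siglecf, also a marker of eosinophils, lost its lower call under the 3 other scalings (adjusted p 0.102 to 0.645).

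**Figure D5:**
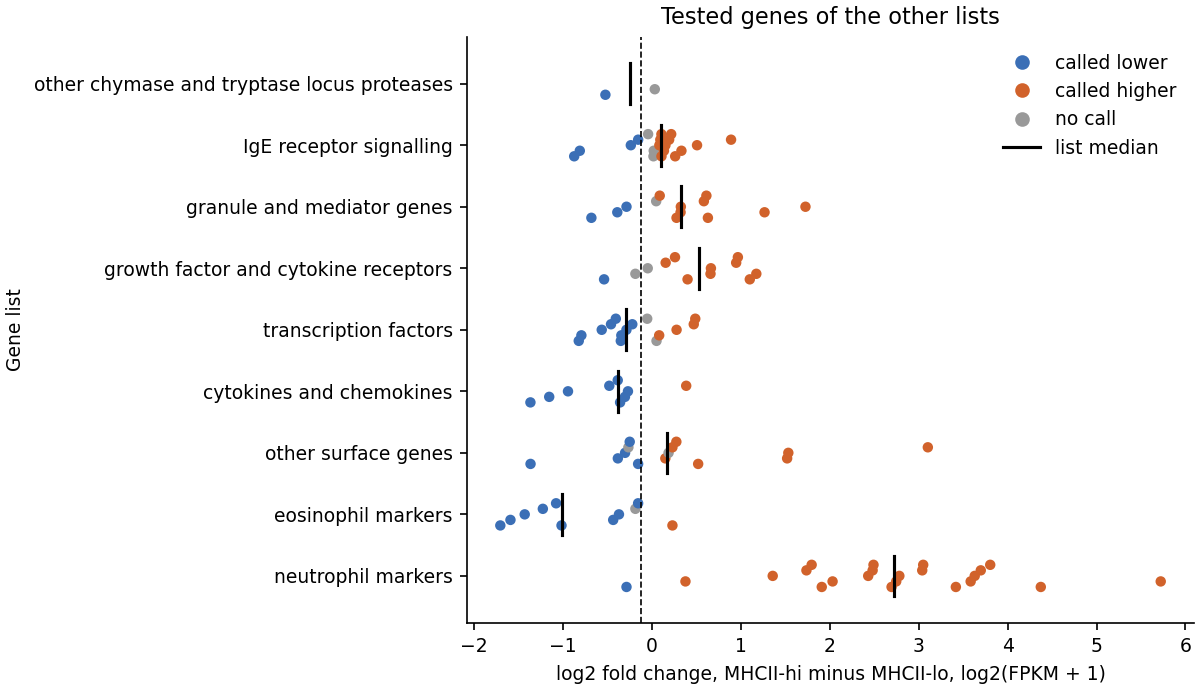
Log2 fold change (MHCII-hi minus MHCII-lo) of the tested genes of 7 lists of basophil and mast cell function and of eosinophil and neutrophil markers; each point is a gene, coloured by call, short bars are list medians and the dashed line is the median of all tested genes. Cytokine genes, transcription factors and eosinophil markers have medians below the line, and receptors, mediator genes and neutrophil markers above it.

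The genes most alike in pattern were sought for the 2 most abundant genes and for Hdc, as Pearson r of log2(FPKM + 1) over the 6 libraries. For Prss34 they were Ifi209, Rplp1, Ear1 and Galnt1, for Mcpt8 Psma7, S100a10, Psap and Spire1, and for Hdc F11r, Stx11, Rflnb and Btg1, with r of 0.9997 to 0.9998. The points share the split into 2 fractions, and many genes follow it: 652, 660 and 757 of the tested genes had r above 0.99 with Prss34, Mcpt8 and Hdc.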

How the data were processed

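Per the submitters' processing notes, reads were handled with fastp, HISAT2 and StringTie on GRCm38 (mm10), and the library kit kept strand, per the labels' protocols. No source used here gives their versions, the annotation or whether strand was used to quantify. For each library the authors deposited gene names with values that were taken as FPKM, a unit no header states: they have 2 decimals, add up to between 327364 and 346651, and FPKM is a StringTie output. The unit is relative, so a rise of abundant genes lowers all others. Low values of single-exon genes showed no step of 1 fragment (mean cosine at most 0.0842), so depth is unknown and counting intervals are not given.

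Symbols repeat in 70 rows; the highest of the rows was used for a symbol, and the others stayed in the fit under names of their own. Genes whose mean reached 1 FPKM were taken as log2(FPKM + 1) into limma 3.58.1 (R 4.3.3), whose model had the fraction as its single term and a variance trend on intensity. Adjusted p-values are Benjamini-Hochberg over every gene tested. The fit was also run on simulated data in which far fewer genes changed than were called here. That run therefore does not give the error rate of these calls. Positions come from GENCODE M21 (GRCm38), and tables were made in Python 3.11.15 with pandas 2.3.3. The 10 genes, the lists and the rule for named genes (all 10, and the 3 most abundant of each list, whatever their change, with 4 class II genes, 4 stem cell markers and the 3 most abundant neutrophil and eosinophil markers) were chosen with earlier results of these data known. Of the listed genes, 10 had no row in the tables used here. Alternatives were other pseudocounts, filters, scalings and variance models, the replicate number as a block, and leaving out each library.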

Additional observations from a re-analysis of the deposited data

How the results depend on the processing

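The calls of Prss34, Mcpt8, Fcer1a, Cd200r3 and Hdc held under every alternative that tested them; Cd200r3, under 5 FPKM, was not tested at that filter. Members called lower numbered 4 to 6 and higher 1 throughout. Cpa3 lost its call under 2 scalings, and Il1rl1 gained one without an intensity trend, as given above. Of all tested genes, 4883 were called lower and 2451 higher, a share of 33.4% higher. Lower calls fell to 3119 after median-ratio scaling (52.1% of calls higher) and to 3078 without neutrophil markers in the total (52.7%), and the share was 41.2% after quantile normalization. The ratio of summed member levels, 2.08, became 1.90, 1.90 and 1.99 under these settings, in this order. Ms4a2 changed sign without a call: 0.12 after median-ratio scaling, 0.12 without neutrophil markers in the total, 0.036 after quantile normalization and 0.0074 with a pseudocount of 0.1. Leaving out single libraries gave Ms4a2 −0.42 to 0.23. With the replicate number as a block, 5 members were called lower and 1 higher, and 4662 genes lower and 2309 higher over the whole table. Libraries with the same number did not deviate together (r of −0.0422 to −0.0401), so no pairing by number was seen. Such values cannot tell whether these libraries share mice, which the labels do not state. Without single libraries, higher calls over the table ranged from 2211 to 2284 and lower calls from 4336 to 4515. Depth is unknown, so what it limits for Cma1 and Tpsb2 cannot be stated.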

Other observations

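Basophil and mast cell progenitors share Gata1 and Gata2 with the red cell and platelet lineages, whose markers were described in no comparison above. Of 14 erythroid and megakaryocyte markers, 10 were called lower in MHCII-hi and 3 higher, with a median log2 fold change of −0.51 beside −0.12 for all tested genes. Among all tested genes, 40.5% were called lower and 20.3% higher. The genes named here were chosen after their values were seen. Car2, a carbonic anhydrase of red cell precursors, fell from 109.9 ± 0.592 to 47.9 ± 1.98 FPKM, and the related Car1 fell from 152.4 ± 1.90 to 86.5 ± 4.18 FPKM. Hbb-bs, a beta globin, fell from 73.8 ± 3.39 to 60.6 ± 2.995 FPKM. The platelet and megakaryocyte genes did not move one way. Ppbp fell by 1.05 on the log2 scale, from 10.97 ± 1.73 to 4.78 ± 0.825 FPKM, and Gp9 did not pass the test (−0.08, adjusted p 0.665). Pf4, Itga2b and Gp1ba were the 3 markers called higher, by 0.25, 0.22 and 0.24 on the log2 scale, and the call of Gp1ba was lost when any single library was left out. Of 10 B cell markers 3 could be tested, and 2, Cd79a and Ighm, were called higher.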
